A study of Mus musculus with 9 samples.

Results

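The genes of glycerolipid, glycerophospholipid and ether lipid metabolism were followed in RAW264.7 cells, a mouse macrophage-like line that RANKL, the cytokine of osteoclast formation, drives towards osteoclasts. Members were taken from the pathway annotation of the deposited gene table: 195 genes carried at least 1 of the 3 KEGG pathways, and leaving out 7 that are also glycolysis genes and 3 by name (Pla2g4a, Pla2g7 and Lpl) gave 185 of 56691 listed genes. Of the 185, 88 reached the expression limit for testing (3 or more libraries with an FPKM of 1 or higher, FPKM being fragments per kilobase of exon scaled to library size) and 97 did not. The study compared 3 groups of 3 libraries: untreated control cells, cells given RANKL, and cells given RANKL together with uridine (UD), a pyrimidine nucleoside. All groups are the same cell line, RNA was collected on day 3, and the UD dose of these libraries is not given in the sources used here. The series calls the libraries of a group biological replicates, and nothing says that they came from separate passages, so p-values measure the spread between these libraries.

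Glycerolipids are built by adding fatty acyl chains to glycerol 3-phosphate, which gives phosphatidic acid. Phosphatidic acid is either dephosphorylated to diacylglycerol, the precursor of triglycerides, phosphatidylcholine and phosphatidylethanolamine, or activated with CTP to CDP-diacylglycerol, the precursor of phosphatidylinositol and cardiolipin. Phospholipases and lysophospholipid acyltransferases then exchange the acyl chains, and ether lipids, including plasmalogens, start from separate enzymes in peroxisomes. Osteoclasts are large fused cells with a folded resorbing membrane and many mitochondria.

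Total counts ran from 15951800 to 19746862 per library, and the members together took 0.522% ± 0.00689 of the counts in control, 0.470% ± 0.00842 in RANKL and 0.505% ± 0.00591 in RANKL+UD (SD, n = 3 libraries). No libraries were counted as copies of each other. The labelled states were checked against markers. All 8 tested of 9 osteoclast markers rose with RANKL (median log2 fold change 6.46), to a summed 2640 to 2843 FPKM from 46.9 to 50.1 FPKM in control, and all 8 fell with UD, to 1666 to 1703 FPKM, so the RANKL+UD libraries still carried a high osteoclast signal. The 7 macrophage markers summed to 8852 to 9442 FPKM in control, 2339 to 2572 FPKM in RANKL and 2043 to 2172 FPKM in RANKL+UD, sums that are mostly Lyz2. Of the 6 tested, 5 fell and Cd68 rose with RANKL (0.60 ± 0.06, adjusted p = 1.07e-08), and 4 fell and Adgre1 rose with UD (0.22 ± 0.07, adjusted p = 0.0142). Markers of fibroblasts, adipocytes, T cells, B cells and epithelial cells were all too low to test, with no single value above 0.56 FPKM. These marker sums moved with the groups beside every result below, and their part in those results was not tested. In these bulk samples fewer cells of a type and less RNA per cell cannot be told apart.

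With RANKL, 30 of the 88 tested lipid genes rose and 31 fell, against 27.3% and 30.2% of all 11995 tested genes, and the members' median log2 fold change was -0.03, equal to the -0.03 of all tested genes. With RANKL, genes moved both ways in 11 of 12 roles. Changes over 1.5-fold were made by 14 members upward and 12 downward (10.8% and 14.1% of all tested genes). With UD added to RANKL, 16 members rose and 25 fell (18.6% and 20.2% of all tested genes), with a median of -0.03 beside 0.00 for all tested genes. Only 1 member, Akr1b3, rose by more than 1.5-fold, and 8 fell by more than 1.5-fold (4.38% and 5.49% of all tested genes). These 8 were Pla2g2e, Lpin3, Gpat3, Dgkh, Pla2g2d, Pld3, Gpcpd1 and Dgka. Here and below, a gene rose or fell where edgeR's quasi-likelihood F test, on counts scaled by the trimmed mean of M-values (TMM), gave a Benjamini-Hochberg adjusted p under 0.05 over all tested genes. Groups without overlap were common. Among all tested genes, the RANKL libraries all lay above control in 22.9% and below in 38.8%. The RANKL+UD libraries all lay above RANKL in 34.1% and below in 17.6%. The genes with the largest changes were named partly for this separation, so it only describes them. A gene could also reach the expression limit through its high group alone. Cds1 and Dgkg did so through control only, and Lpin3 and Akr1b7 through treated libraries only. Being tested at all thus depended on where they were high, so their rank among the members is a description too. Counts by role or list below stand beside the 27.3% and 30.2% of all tested genes with RANKL, and the 18.6% and 20.2% with UD. These shares hold for TMM scaling only. Counts given below with total-count scaling have no such shares beside them, and all tested genes shift under it, as the next paragraph describes. These roles and lists hold few genes, and none was tested as a set. The RANKL libraries enter both comparisons, so a high or low RANKL value moves the 2 fold changes in opposite directions.

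The direction split depended on the scaling. Scaled by total counts alone, the median of all tested genes moved to -0.11 for RANKL against control and to 0.09 for RANKL+UD against RANKL. The members then split into 23 higher and 37 lower with RANKL, and 24 higher and 20 lower with UD, in place of 16 and 25. All tested genes moved with the scaling too. With total counts, 38.33% of called members and 36.93% of all called genes were higher with RANKL. With UD these shares were 54.55% and 66.21%, in place of 39.02% and 48.01% with TMM scaling. FPKM values are on that total-count scale, whereas the fold changes use TMM scaling. A small FPKM difference can thus be somewhat larger or smaller than its fold change, or of the other sign. Plpp1, for example, had a mean of 19.2 FPKM in RANKL and 20.1 FPKM in RANKL+UD beside a log2 fold change of -0.02.

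**Figure D1:**
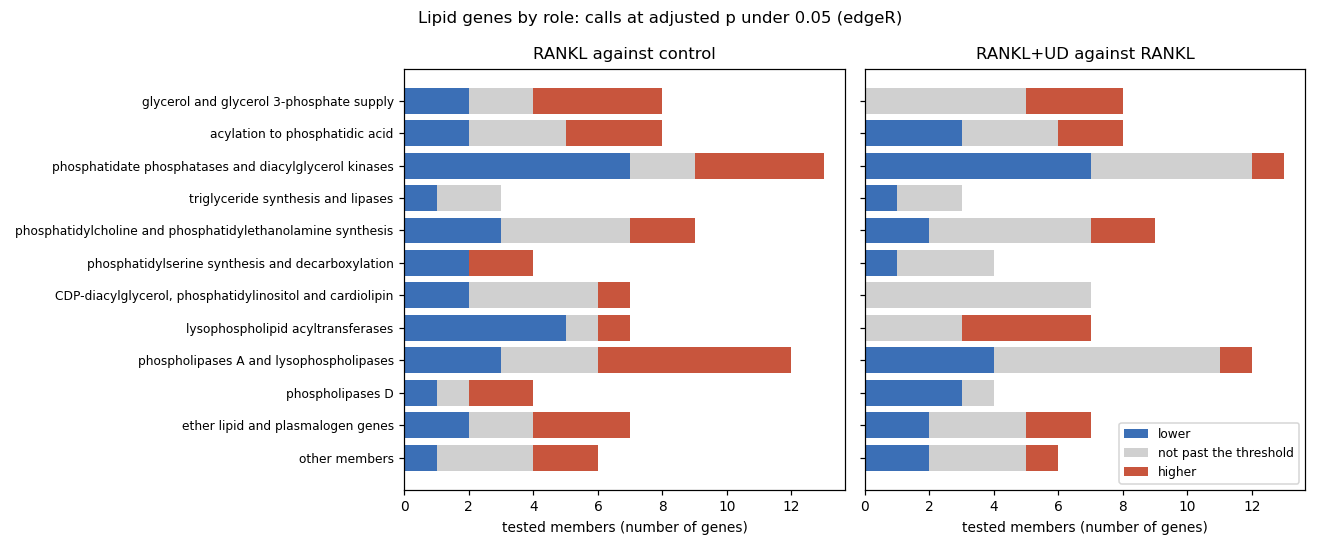
Number of tested members (x axis, genes) in each role (y axis) that were higher (red), lower (blue) or not past an adjusted p of 0.05 (grey), for RANKL against control (left) and RANKL+UD against RANKL (right), each from 3 libraries a group. Phosphatidate phosphatases and diacylglycerol kinases hold 7 lower genes on each side, and lysophospholipid acyltransferases go from 5 lower on the left to 4 higher on the right.

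Among the 8 tested genes of glycerol and glycerol 3-phosphate supply, 4 rose and 2 fell with RANKL, and 3 rose and none fell with UD, counts that were 4 and 3, and 4 and 0, with total-count scaling. Akr1b3 (ENSMUSG00000001642) encodes aldose reductase, which turns aldehyde sugars into alcohols and is listed here for reducing glyceraldehyde to glycerol. It was measured at 14.1, 13.8 and 15.6 FPKM in the control libraries, 15.7, 16.6 and 17.4 FPKM in RANKL, and 35.9, 36.3 and 34.5 FPKM in RANKL+UD. All 3 RANKL+UD libraries lay far above the 6 others, and the groups did not overlap in either comparison. The log2 fold change was 0.28 ± 0.06 (SE, adjusted p = 0.000202) with RANKL and 1.02 ± 0.05 (adjusted p = 1.15e-11) with UD, the largest UD rise among the members. Its close paralog Akr1b8 was at 38.4, 39.3 and 39.1 FPKM in control, 63.9, 71.1 and 69.9 FPKM in RANKL and 84.1, 80.8 and 80.1 FPKM in RANKL+UD. RANKL raised it by 0.90 ± 0.06 on the log2 scale (adjusted p = 1.19e-11). With UD it rose by 0.17 ± 0.05 (adjusted p = 0.0149), a call lost without RANKL replicate 1 (0.13) or RANKL+UD replicate 1 (0.15). Akr1b7, at 0.24 to 0.60 FPKM in control and 0.97 to 1.42 FPKM in RANKL, rose by 1.68 ± 0.51 (adjusted p = 0.0074). In RANKL+UD its libraries spread from 0.18 to 1.15 FPKM, and the difference from RANKL, -0.89, passed the threshold only without RANKL+UD replicate 1 (-1.54). Akr1b10 passed in neither comparison. How the counting divided reads among these 4 related genes is not given in the sources used here, so each value is uncertain to that extent. Their summed level was 62.3 ± 0.644 FPKM in control, 93.9 ± 4.49 FPKM in RANKL and 126 ± 3.15 FPKM in RANKL+UD (SD, n = 3).

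Gpd1l, a cytosolic glycerol 3-phosphate dehydrogenase that makes glycerol 3-phosphate from a glycolytic intermediate, went the other way with RANKL. Its control libraries held 16.2, 16.1 and 16.6 FPKM, the RANKL libraries 11.0, 12.0 and 11.4 FPKM, and the RANKL+UD libraries 15.5, 16.4 and 17.6 FPKM. The RANKL libraries lay below all others, while RANKL+UD and control overlapped. It fell by 0.42 ± 0.06 with RANKL (adjusted p = 3.9e-06) and rose by 0.44 ± 0.06 with UD (adjusted p = 6.22e-06), and RANKL+UD differed from control by 0.02 (adjusted p = 0.81). Gk, the glycerol kinase, fell by 0.70 ± 0.07 with RANKL (adjusted p = 1.69e-08) from 9.01 to 9.42 FPKM to 4.90 to 5.61 FPKM, and was 0.10 higher with UD without passing the threshold (adjusted p = 0.259; 0.19 and past it with total-count scaling). Gpd2, the mitochondrial glycerol 3-phosphate dehydrogenase that feeds electrons to the respiratory chain, rose by 0.39 ± 0.06 with RANKL (adjusted p = 2.86e-05).

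Of the 8 tested acyltransferases on the way to phosphatidic acid, 3 rose and 2 fell with RANKL, and 2 rose and 3 fell with UD. Without TMM scaling these counts were 2 and 3 with RANKL and 3 and 3 with UD. Gpat3 (ENSMUSG00000029314), a glycerol 3-phosphate acyltransferase of the endoplasmic reticulum, was at 1.95, 2.40 and 2.31 FPKM in control, 3.72, 4.08 and 4.85 FPKM in RANKL, and 2.19, 1.68 and 1.82 FPKM in RANKL+UD. Every RANKL library was above all 6 others, and the control and RANKL+UD libraries overlapped. The log2 fold change was 1.01 ± 0.14 with RANKL (adjusted p = 3.9e-06) and -1.23 ± 0.15 with UD (adjusted p = 1.03e-06), and RANKL+UD stood at -0.22 to control (adjusted p = 0.246). Gpat4, which catalyses the same step, was the more abundant enzyme and took the opposite course. Its levels were 16, 16.3 and 17.0 FPKM in control, 12.8, 13.1 and 11.9 FPKM in RANKL, and 16.5, 16.4 and 17.1 FPKM in RANKL+UD. Here the RANKL libraries were the lowest 3, with a log2 fold change of -0.30 ± 0.05 with RANKL (adjusted p = 6.97e-05) and 0.31 ± 0.05 with UD (adjusted p = 8.07e-05). The ratio of Gpat3 to Gpat4 FPKM was 0.135 ± 0.0125 in control, 0.336 ± 0.0616 in RANKL and 0.114 ± 0.0165 in RANKL+UD (SD, n = 3). Gpam, the mitochondrial enzyme of this step, passed the threshold in neither comparison (-0.22 and past it with RANKL under total-count scaling).

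The second acyl chain is added by the Agpat enzymes, whose paralogs moved separately. Agpat3 fell with RANKL by 0.63 ± 0.07 (adjusted p = 3.06e-07) from 7.61 to 7.79 FPKM to 4.36 to 5.16 FPKM, with a UD difference of 0.07 (adjusted p = 0.499). Agpat4 rose with RANKL by 0.54 ± 0.11 (adjusted p = 0.000284) and fell with UD by 0.42 ± 0.11 (adjusted p = 0.00462), although the RANKL libraries (8.97 to 11.2 FPKM) and RANKL+UD libraries (6.84 to 9.08 FPKM) overlapped. Agpat2 was at -0.07 with RANKL (adjusted p = 0.601) and fell by 0.43 ± 0.12 with UD (adjusted p = 0.00556). Agpat5 rose with UD by 0.18 ± 0.05 (adjusted p = 0.00815). Agpat1 rose by 0.24 ± 0.08 with RANKL (adjusted p = 0.0201), a call lost without control replicate 1 (0.21), control replicate 2 (0.20) or RANKL replicate 2 (0.17).

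Phosphatidic acid and diacylglycerol are interconverted by phosphatases in one direction and diacylglycerol kinases in the other, and this group of 13 tested genes held the steepest change among the members. In it 4 genes rose and 7 fell with RANKL, and 1 rose and 7 fell with UD, or 1 and 5 with total-count scaling. The 4 that rose with RANKL were the phosphatases Lpin3, Lpin1 and Plpp1 and the mitochondrial acylglycerol kinase Agk. Lpin3 (ENSMUSG00000027412), 1 of 3 lipins that dephosphorylate phosphatidic acid, had 0.10, 0.00 and 0.12 FPKM in the control libraries, 2.65, 2.07 and 2.61 FPKM in RANKL, and 1.28, 0.88 and 1.08 FPKM in RANKL+UD. The 3 groups did not overlap, with control at or near 0, RANKL highest and RANKL+UD between them. The control level rests on 0 to 7 reads per library, against 148 to 193 in RANKL and 53 to 93 in RANKL+UD. The fitted log2 fold change was 5.23 ± 0.37 with RANKL (adjusted p = 9.92e-11), imprecise at so few control reads, and -1.25 ± 0.24 with UD (adjusted p = 0.000236).

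The promoters of Lpin3, Cds1 and Pla2g2e are shown because these genes had the steepest rise with RANKL, the steepest fall with RANKL and the steepest fall with UD among the members. Akr1b3, with the steepest rise with UD, had no window in the promoter sequences used. The RefSeq windows (GRCm38.p6, plus strand, 250 bases before to 50 after an annotated start) were searched on both strands for the AP-1 motif TGANTCA, bound by Fos and Jun factors, the E-box CACGTG and the antioxidant response element core TGACNNNGC. Motifs are in capitals, and a match is a stretch of letters, not evidence of binding. Lpin3 has 2 annotated starts, at chr2:160880420-160880719 and chr2:160887918-160888217, Cds1 lies at chr5:101764880-101765179 and Pla2g2e at chr4:138877692-138877991.
Lpin3, start 1: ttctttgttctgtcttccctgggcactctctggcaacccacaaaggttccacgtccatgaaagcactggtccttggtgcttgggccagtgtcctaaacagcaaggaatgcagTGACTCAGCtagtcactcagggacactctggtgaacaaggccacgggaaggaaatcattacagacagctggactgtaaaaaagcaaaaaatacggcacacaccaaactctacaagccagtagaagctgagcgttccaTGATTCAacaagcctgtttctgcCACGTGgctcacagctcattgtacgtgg
Lpin3, start 2: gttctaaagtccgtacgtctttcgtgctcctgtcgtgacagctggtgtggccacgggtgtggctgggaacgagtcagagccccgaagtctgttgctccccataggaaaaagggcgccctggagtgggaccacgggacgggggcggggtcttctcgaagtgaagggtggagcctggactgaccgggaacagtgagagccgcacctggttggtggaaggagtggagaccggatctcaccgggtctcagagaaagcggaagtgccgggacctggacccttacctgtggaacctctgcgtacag
Cds1: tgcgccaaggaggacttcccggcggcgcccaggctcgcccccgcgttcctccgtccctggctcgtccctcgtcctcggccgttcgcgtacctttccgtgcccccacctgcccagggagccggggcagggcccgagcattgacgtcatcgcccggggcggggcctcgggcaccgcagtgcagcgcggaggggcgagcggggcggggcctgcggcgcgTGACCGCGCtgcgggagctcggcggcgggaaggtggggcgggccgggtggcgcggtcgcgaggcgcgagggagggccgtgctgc
Pla2g2e: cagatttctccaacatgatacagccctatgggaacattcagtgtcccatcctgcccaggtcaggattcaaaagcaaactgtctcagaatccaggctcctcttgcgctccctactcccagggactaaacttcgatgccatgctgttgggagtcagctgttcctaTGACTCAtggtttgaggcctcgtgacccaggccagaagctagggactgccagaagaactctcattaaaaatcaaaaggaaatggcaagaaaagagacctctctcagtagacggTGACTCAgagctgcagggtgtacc
Start 1 of Lpin3 held 4 matches. These were AP-1 motifs at bases 113 to 119 and 250 to 256, an E-box at 273 to 278, and an antioxidant core at 113 to 121 that shares its first bases with the first AP-1 motif. Start 2 held none. The Pla2g2e window held AP-1 motifs at bases 164 to 170 and 277 to 283, and the Cds1 window an antioxidant core at 217 to 225. Over the 72 tested members with a window, 6.94% held an AP-1 motif, 18.1% an E-box and 18.1% an antioxidant core, beside 8.97%, 8.09% and 14% of all 27025 genes with windows of that length. Unlike the members, the 27025 genes were not limited to those expressed here, so the sets compared are unlike. These shares are descriptions with no test.

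Lpin1 was at 2.78, 2.48 and 2.77 FPKM in control, 4.74, 4.76 and 4.45 FPKM in RANKL, and 3.40, 4.12 and 3.22 FPKM in RANKL+UD. The order of the groups was that of Lpin3, again without overlap. It rose by 0.89 ± 0.09 with RANKL (adjusted p = 2.99e-08) and fell by 0.47 ± 0.09 with UD (adjusted p = 0.000236). Lpin2, the most abundant lipin, moved the other way. It fell by 0.20 ± 0.06 with RANKL (adjusted p = 0.00808) from 6.18 to 6.51 FPKM to 4.81 to 5.40 FPKM, and rose by 0.23 ± 0.06 with UD (adjusted p = 0.00432) to 6.23 to 6.65 FPKM. The ratio of Lpin1 to Lpin2 FPKM was 0.423 ± 0.0205 in control, 0.897 ± 0.0244 in RANKL and 0.553 ± 0.0628 in RANKL+UD (SD, n = 3). Plpp1, a membrane phosphatase for phosphatidic and lysophosphatidic acid, rose by 0.77 ± 0.09 with RANKL (adjusted p = 2.92e-07) and was at -0.02 with UD (adjusted p = 0.885). Plpp2 fell by 0.37 ± 0.14 with RANKL (adjusted p = 0.0276), a call lost without control replicate 3 (-0.25) or RANKL replicate 2 (-0.30). Agk rose by 0.38 ± 0.10 with RANKL (adjusted p = 0.00317) and fell by 0.30 ± 0.10 with UD (adjusted p = 0.0242), and the latter was lost without RANKL replicate 2 or 3 or RANKL+UD replicate 1 or 2 (-0.29 to -0.27).

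**Figure D2:**
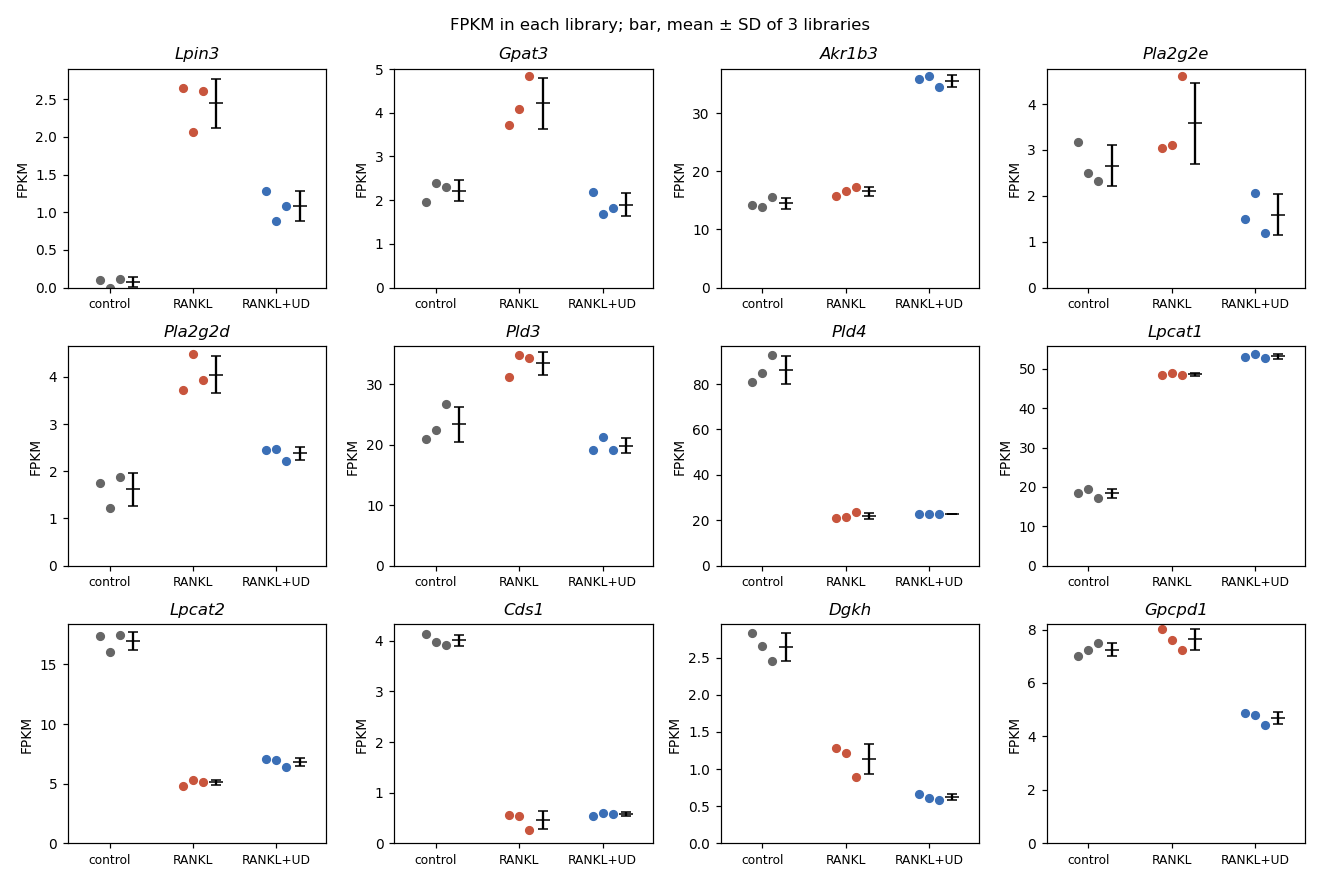
FPKM (y axis) of 12 lipid genes in each library of the control, RANKL and RANKL+UD groups (x axis), with points for single libraries and a bar for the mean ± SD of 3 libraries. Lpin3, Gpat3, Pla2g2d and Pld3 peak in RANKL and are lower in RANKL+UD, Akr1b3 stands apart in RANKL+UD, and Pld4, Lpcat1, Lpcat2 and Cds1 stay far from control in both treated groups.

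Diacylglycerol kinases end diacylglycerol signals by phosphorylating it. Of 7 tested kinases of this family, Dgkd, Dgkz, Dgka, Dgkh and Dgkg fell with RANKL, while Dgke (0.17) and Dgkq (0.05) did not pass the threshold. Dgkh was at 2.83, 2.65 and 2.45 FPKM in control, 1.28, 1.22 and 0.90 FPKM in RANKL, and 0.67, 0.61 and 0.59 FPKM in RANKL+UD, a descending order with no overlap. It fell by 1.14 ± 0.11 with RANKL (adjusted p = 1.48e-08) and by a further 0.94 ± 0.12 with UD (adjusted p = 3.6e-06). Dgka fell by 1.11 ± 0.15 (adjusted p = 1.34e-06) and then by 0.68 ± 0.17 (adjusted p = 0.00233), from 2.64 to 2.82 FPKM in control to 1.05 to 1.38 FPKM in RANKL and 0.72 to 0.85 FPKM in RANKL+UD. Dgkd, the most abundant of the family, was at 47.7, 48.8 and 50.9 FPKM in control, 31.5, 34.2 and 30.9 FPKM in RANKL, and 26.4, 27.7 and 27.3 FPKM in RANKL+UD. Its 3 groups were also separate, with falls of 0.52 ± 0.05 (adjusted p = 8.51e-09) and 0.34 ± 0.05 (adjusted p = 1.57e-05).

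Dgkg dropped with RANKL by 2.77 ± 0.19 (adjusted p = 5.42e-11), from 1.70 to 2.01 FPKM to 0.19 to 0.31 FPKM, and its UD difference of -0.43 did not pass the threshold (adjusted p = 0.174). Dgkz fell by 0.32 ± 0.07 with RANKL (adjusted p = 0.000905) and by 0.19 ± 0.07 with UD (adjusted p = 0.0469). The latter call was lost without RANKL replicate 2 or 3 or any single RANKL+UD library (-0.21 to -0.15) and with total-count scaling (-0.11). The summed FPKM of the 10 listed kinases was 88.6 ± 5.51 in control, 60.1 ± 1.53 in RANKL and 52.4 ± 1.70 in RANKL+UD (SD, n = 3). On the opposite strand, Dgkd, Dgka and Dgkz overlap the expressed genes Usp40, Pmel and Gm9821. Such an overlap holds for 20 tested members in all, also for Plpp1, Cept1, Ptdss1, Pisd-ps1, Lpcat3, Lpgat1, Mboat7, Pnpla7, Gnpat, Cdipt, Tafazzin, Tmem175, Zfp652, Abi3 and Dgkq among those named. The libraries mark strand, but whether the counting used it is not given in the sources used here.

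Most listed triglyceride genes were too low to test, and the lipase gene Lpl had been left out of the members by name. Of 16 listed genes of triglyceride synthesis and lipolysis, 3 were tested, 1 fell with RANKL and 1 with UD. Mogat1, a monoacylglycerol acyltransferase, fell by 1.15 ± 0.32 with RANKL (adjusted p = 0.00433), from 1.37 to 2.48 FPKM to 0.54 to 1.06 FPKM. Pnpla2, the adipose triglyceride lipase that opens the breakdown of stored fat, fell with UD by 0.36 ± 0.10 (adjusted p = 0.00512) after a RANKL difference of 0.03 (adjusted p = 0.803). Its libraries held 12.2 to 13.7 FPKM in RANKL and 10.3 to 11.0 FPKM in RANKL+UD, without overlap. Dgat1, which makes triglyceride from diacylglycerol, passed the threshold in neither comparison, and Dgat2 remained below 0.33 FPKM in every library.

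In the CDP-choline and CDP-ethanolamine routes to phosphatidylcholine and phosphatidylethanolamine, called changes with RANKL and with UD were all under 1.5-fold. Of 9 tested genes, 2 rose and 3 fell with RANKL, and 2 rose and 2 fell with UD, counts that became 0 and 4, and 3 and 1, with total-count scaling. Pcyt1a, the rate-controlling cytidylyl transferase of phosphatidylcholine synthesis, was at 14.3, 13.9 and 13.6 FPKM in control, 15.7, 14.4 and 14.9 FPKM in RANKL, and 12.4, 13.1 and 13.0 FPKM in RANKL+UD. The RANKL+UD libraries were the lowest 3 of the 9 and the RANKL libraries the highest 3. Its rise with RANKL was 0.19 ± 0.05 (adjusted p = 0.00339; 0.11 and not past the threshold with total-count scaling), and its fall with UD was 0.31 ± 0.05 (adjusted p = 7.34e-05). Cept1, which attaches choline or ethanolamine to diacylglycerol, was the most abundant gene of the route. It fell by 0.30 ± 0.05 with RANKL (adjusted p = 6.23e-05), from 40.5 to 43.7 FPKM to 30.9 to 33.3 FPKM. Its UD fall of 0.17 ± 0.05 (adjusted p = 0.0149) was lost without RANKL replicate 1, RANKL+UD replicate 2 or RANKL+UD replicate 3 (-0.17 to -0.14) and with total-count scaling (-0.09). Cept1 overlaps Dennd2d and Dram2 on the opposite strand.

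Chpt1, the cholinephosphotransferase, rose with UD by 0.31 ± 0.11 (adjusted p = 0.0295), from 1.48 to 1.82 FPKM to 2.11 to 2.34 FPKM, a call lost without RANKL replicate 3 (0.23), RANKL+UD replicate 2 (0.28) or RANKL+UD replicate 3 (0.32). On the ethanolamine side, the kinase Etnk1 fell by 0.31 ± 0.06 with RANKL (adjusted p = 0.000103) and rose by 0.20 ± 0.06 with UD (adjusted p = 0.00886). The cytidylyl transferase Pcyt2 fell by 0.40 ± 0.09 with RANKL (adjusted p = 0.000615), with a UD difference of 0.13 (adjusted p = 0.289). Selenoi, the ethanolaminephosphotransferase, differed by less than 0.03 in size in both comparisons. The choline kinases Chka and Chkb passed the threshold in neither. The UD difference of Chka, 0.21 (adjusted p = 0.054), did pass with total-count scaling (0.30), with only the 6 libraries compared, with the replicate block and without control replicate 2 or 3 (each 0.21). That of Chkb, -0.47 (adjusted p = 0.0769), passed with no filter (-0.47) and without RANKL+UD replicate 1 (-0.80). Chkb also passed with RANKL under total-count scaling (-0.48) and without RANKL+UD replicate 1 (-0.39). Between RANKL+UD and control it passed in the fit described above, at -0.86 ± 0.20 (adjusted p = 0.00113). Adprm, named after its value was seen, was the other gene higher with RANKL (0.27 ± 0.11, adjusted p = 0.038). That call was lost with total-count scaling (0.18), with no filter (0.28) and without any single control library or RANKL replicate 1 or 3 (0.21 to 0.28).

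Phosphatidylserine is made from those lipids by Ptdss1 and Ptdss2 and decarboxylated in mitochondria by Pisd. All 4 tested genes changed with RANKL, 2 in each direction, and 1 fell with UD. With total-count scaling 1 rose and 2 fell with RANKL, and with UD the direction turned to 1 higher (Ptdss2, 0.28) and none lower. Pisd rose by 0.35 ± 0.09 with RANKL (adjusted p = 0.00226). It fell by 0.30 ± 0.09 with UD (adjusted p = 0.012), from 4.53 to 4.86 FPKM to 3.70 to 4.27 FPKM, and this fall was lost without RANKL+UD replicate 2 (-0.23) and with total-count scaling (-0.21). Its pseudogene Pisd-ps1 went the opposite way with RANKL, falling by 0.99 ± 0.14 (adjusted p = 5.31e-06), and the 2 share sequence, so the division of their reads is uncertain. Ptdss1 fell by 0.19 ± 0.06 (adjusted p = 0.0123), lost without control replicate 2 and with no filter (both -0.17). Ptdss2 rose by 0.21 ± 0.09 (adjusted p = 0.0366), lost without control replicate 1 (0.17), control replicate 2 (0.19) or RANKL replicate 2 (0.16).

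CDP-diacylglycerol synthase opens the branch to phosphatidylinositol and cardiolipin, and its paralogs Cds1 and Cds2 differed sharply. Cds1 (ENSMUSG00000029330) was at 4.13, 3.97 and 3.92 FPKM in control, 0.57, 0.55 and 0.26 FPKM in RANKL, and 0.54, 0.61 and 0.59 FPKM in RANKL+UD. Both treated groups lay far below control and overlapped each other. The log2 fold change was -3.02 ± 0.20 with RANKL (adjusted p = 2.96e-11), the deepest fall among the members, and 0.24 ± 0.24 with UD (adjusted p = 0.484). Cds1 reached the expression limit only through its control libraries. Cds2 rose by 0.25 ± 0.06 with RANKL (adjusted p = 0.000905), from 7.62 to 7.92 FPKM to 8.44 to 8.88 FPKM. Cds1 therefore made up 34.0% ± 0.315 of the summed FPKM of both in control, 4.95% ± 1.70 in RANKL and 5.88% ± 0.532 in RANKL+UD (SD, n = 3). Downstream, Pgs1, which makes phosphatidylglycerol phosphate, fell by 0.21 ± 0.06 with RANKL (adjusted p = 0.00626). Cdipt (phosphatidylinositol synthase), Crls1 (cardiolipin synthase), Tafazzin and Lclat1 (cardiolipin remodelling) did not pass the threshold in either comparison of the fit described above. None of the 7 tested genes of this branch passed it with UD, with log2 fold changes between -0.20 and 0.24. Other settings did call some of them. Tafazzin was lower with UD by DESeq2 and with relative-log-expression scaling (both -0.21) and without control replicate 3, RANKL replicate 1 or RANKL+UD replicate 1 (-0.25 to -0.20). Crls1 was lower with relative-log-expression scaling (-0.20) and with only the 6 libraries compared (-0.19), and Lclat1 was higher with total-count scaling (0.27). Tafazzin was also lower with RANKL under total-count scaling (-0.26) and without control replicate 3 (-0.21) or RANKL replicate 3 (-0.22).

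**Figure D3:**
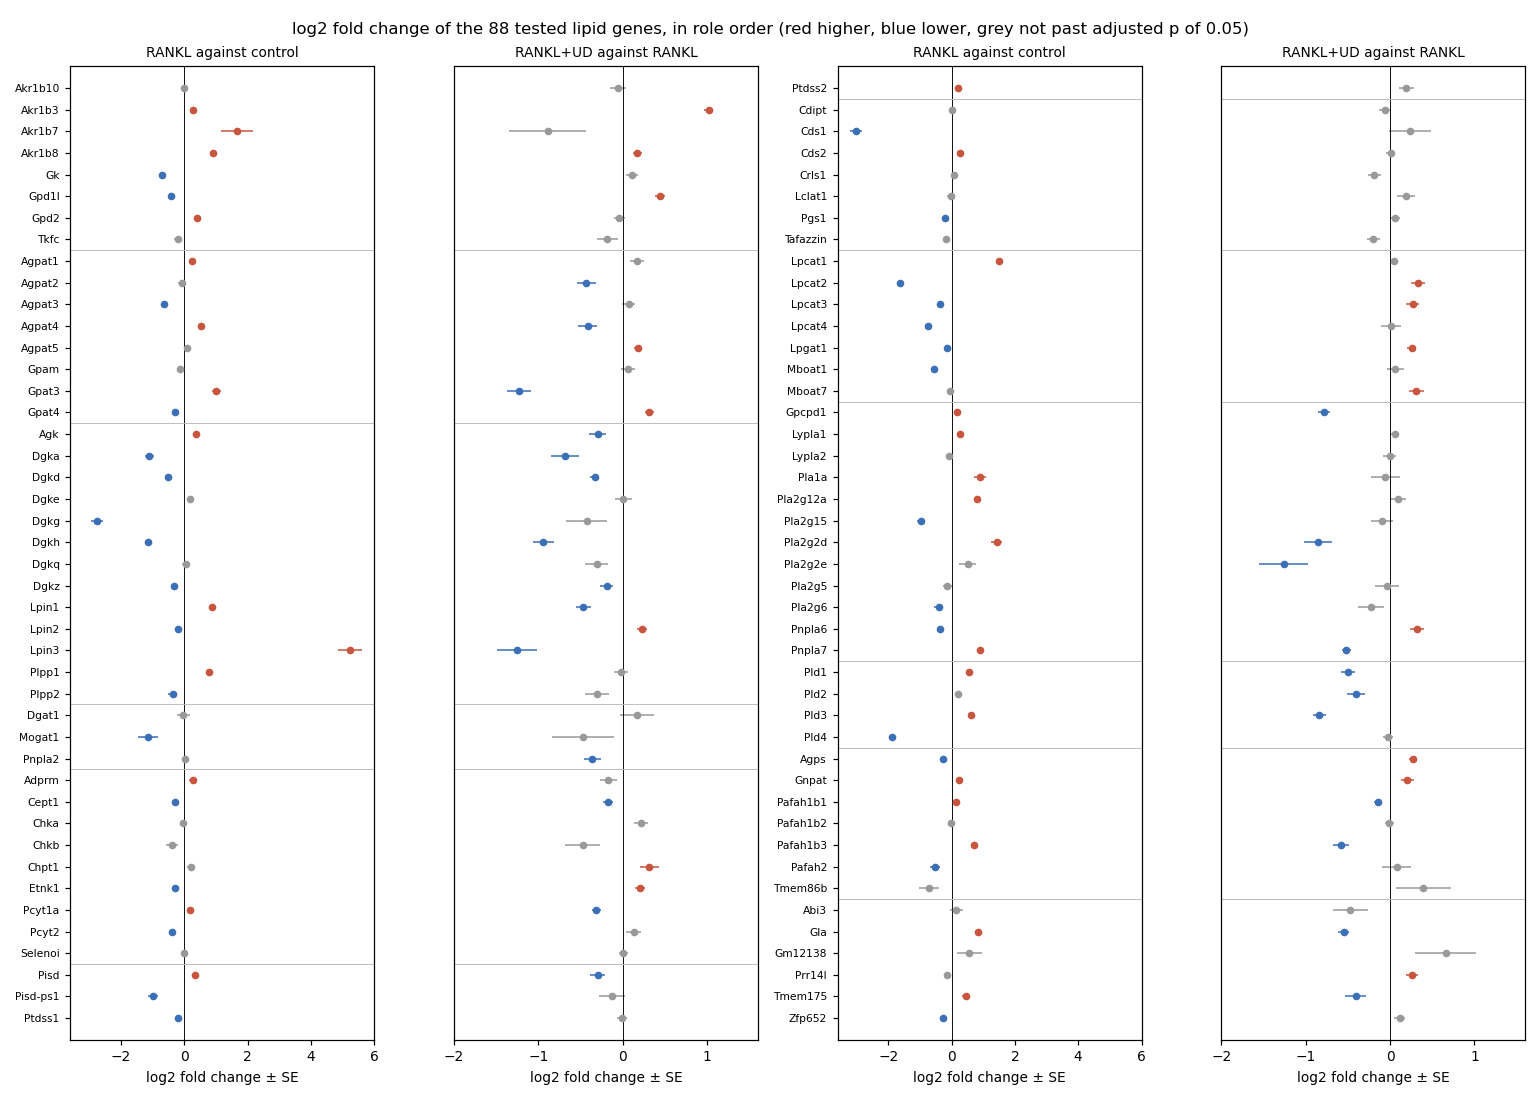
log2 fold change ± SE (x axis) of each of the 88 tested members (y axis, in role order with grey lines between roles) for RANKL against control and RANKL+UD against RANKL, from 3 libraries a group. Red and blue points passed an adjusted p of 0.05 upward and downward. The RANKL axis runs to 6 because of Lpin3 (5.23), whereas the UD changes lie between -1.26 and 1.02.

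Lysophospholipid acyltransferases re-add an acyl chain to a lysophospholipid and so set the chain composition of membranes. Of 7 tested, 1 rose and 5 fell with RANKL, and 4 rose and none fell with UD, and with total-count scaling these counts were 1 and 5, and 5 and 0. The 1 that rose, Lpcat1 (ENSMUSG00000021608), which favours saturated chains in phosphatidylcholine, was at 18.5, 19.5 and 17.2 FPKM in control, 48.5, 49.0 and 48.5 FPKM in RANKL, and 53.1, 53.9 and 52.7 FPKM in RANKL+UD. Lpcat2 (ENSMUSG00000033192), a macrophage enzyme that also makes platelet-activating factor, was at 17.4, 16.1 and 17.4 FPKM in control, 4.85, 5.31 and 5.19 FPKM in RANKL, and 7.10, 6.98 and 6.44 FPKM in RANKL+UD. The 2 genes thus started at like levels and separated in every RANKL library.

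Lpcat1 rose by 1.49 ± 0.05 with RANKL (adjusted p = 4.32e-16) and was at 0.04 with UD (adjusted p = 0.525; 0.13 and past the threshold with total-count scaling). Lpcat2 fell by 1.64 ± 0.08 with RANKL (adjusted p = 2.47e-13) and rose by 0.33 ± 0.09 with UD (adjusted p = 0.00379), and RANKL+UD stood at -1.31 ± 0.08 to control (adjusted p = 9.73e-12). The ratio of Lpcat1 to Lpcat2 FPKM was 1.09 ± 0.117 in control, 9.52 ± 0.411 in RANKL and 7.79 ± 0.359 in RANKL+UD (SD, n = 3). Lpcat3, which places polyunsaturated chains, had RANKL libraries (10.9 to 11.8 FPKM) below all others. It fell by 0.38 ± 0.08 with RANKL (adjusted p = 0.000279) and rose by 0.27 ± 0.08 with UD (adjusted p = 0.00887). Lpcat4 and Mboat1 fell with RANKL by 0.73 ± 0.12 (adjusted p = 1.38e-05) and 0.54 ± 0.10 (adjusted p = 9.35e-05), with UD differences of 0.01 and 0.06. Lpgat1 fell by 0.15 ± 0.05 with RANKL (adjusted p = 0.0105; -0.13 and not past the threshold with only the 6 libraries compared) and rose by 0.25 ± 0.05 with UD (adjusted p = 0.000255). Mboat7, which acylates lysophosphatidylinositol, was at -0.06 with RANKL (adjusted p = 0.598) and rose by 0.31 ± 0.09 with UD (adjusted p = 0.00612), with 2.75 to 3.10 FPKM in RANKL and 3.80 to 4.01 FPKM in RANKL+UD. Lpcat3, Mboat7 and Lpgat1 overlap genes on the opposite strand.

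Phospholipases A remove acyl chains, and lysophospholipases finish the breakdown. Among 12 tested, 6 rose and 3 fell with RANKL, and 1 rose and 4 fell with UD, counts that were 5 and 3, and 2 and 4, with total-count scaling. The secreted phospholipase Pla2g2e (ENSMUSG00000028751) was at 3.17, 2.49 and 2.32 FPKM in control, 3.04, 3.10 and 4.60 FPKM in RANKL, and 1.5, 2.07 and 1.20 FPKM in RANKL+UD. The RANKL+UD libraries were the lowest 3 of the 9, and RANKL overlapped control. Its UD fall of 1.26 ± 0.29 (adjusted p = 0.00149) was the deepest among the members but rests on 19 to 31 reads per RANKL+UD library, and its RANKL difference of 0.52 did not pass the threshold (adjusted p = 0.108). Pla2g2d, another secreted member, was at 1.75, 1.22 and 1.87 FPKM in control, 3.73, 4.48 and 3.93 FPKM in RANKL, and 2.45, 2.46 and 2.22 FPKM in RANKL+UD. Its 3 groups were separate, with RANKL+UD between the others, a rise of 1.42 ± 0.18 with RANKL (adjusted p = 6.59e-07) and a fall of 0.85 ± 0.17 with UD (adjusted p = 0.000411).

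Pnpla7, a lysophospholipase that releases glycerophosphocholine, was at 7.63, 7.71 and 7.21 FPKM in control, 12.8, 13.5 and 12.9 FPKM in RANKL, and 9.59, 9.73 and 9.80 FPKM in RANKL+UD. It rose by 0.89 ± 0.06 with RANKL (adjusted p = 1.09e-11) and fell by 0.52 ± 0.05 with UD (adjusted p = 1.86e-07), and no groups overlapped. Its relative Pnpla6 fell by 0.36 ± 0.08 with RANKL (adjusted p = 0.000717) and rose by 0.32 ± 0.08 with UD (adjusted p = 0.00359), the single UD rise in this role. Gpcpd1, which cleaves glycerophosphocholine into choline and glycerol 3-phosphate, was at 7.00, 7.23 and 7.48 FPKM in control, 8.01, 7.62 and 7.25 FPKM in RANKL, and 4.87, 4.79 and 4.42 FPKM in RANKL+UD. The RANKL+UD libraries lay below all others, while control and RANKL overlapped. Gpcpd1 fell by 0.79 ± 0.07 with UD (adjusted p = 1.99e-08) and rose by 0.16 ± 0.07 with RANKL (adjusted p = 0.0448). The RANKL call was lost without control replicate 1 or 2, RANKL replicate 1 or 2 or RANKL+UD replicate 2 (0.13 to 0.17). It was also lost with no filter (0.18) and with total-count scaling (0.08).

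The other rises with RANKL in this role were those of Pla1a, a phosphatidylserine-specific phospholipase (0.91 ± 0.19, adjusted p = 0.000262), Pla2g12a (0.80 ± 0.09, adjusted p = 2.06e-07) and the thioesterase Lypla1 (0.26 ± 0.05, adjusted p = 7.78e-05). None of these 3 passed the threshold with UD (Lypla1 did with total-count scaling, at 0.14), and Pla2g12a and Lypla1 were named after their values were seen. Pla2g15, the lysosomal phospholipase A2, fell by 0.96 ± 0.12 with RANKL (adjusted p = 6.29e-07), from 9.10 to 10.5 FPKM to 3.88 to 5.40 FPKM. It was at -0.10 with UD (adjusted p = 0.585). Pla2g6, the calcium-independent enzyme, fell by 0.40 ± 0.15 with RANKL (adjusted p = 0.0239), lost without control replicate 3 (-0.29), RANKL replicate 2 (-0.39) or RANKL replicate 3 (-0.31).

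The phospholipase D family holds the classical enzymes Pld1 and Pld2, which release phosphatidic acid, and Pld3 and Pld4, family members of endosomes and lysosomes known as single-stranded nucleic acid exonucleases. Pld4 (ENSMUSG00000052160) was at 81.0, 84.9 and 92.9 FPKM in control, 20.7, 21.4 and 23.5 FPKM in RANKL, and 22.6, 22.9 and 22.8 FPKM in RANKL+UD. Pld3 (ENSMUSG00000003363) was at 20.9, 22.4 and 26.6 FPKM in control, 31.2, 34.8 and 34.3 FPKM in RANKL, and 19.1, 21.3 and 19.1 FPKM in RANKL+UD. Pld4 was low in both treated groups, while Pld3 was high in the RANKL group alone.

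Pld4 fell by 1.89 ± 0.06 with RANKL (adjusted p = 7.77e-17), with a UD difference of -0.03 (adjusted p = 0.745). Pld3 rose by 0.61 ± 0.07 with RANKL (adjusted p = 4.9e-07) and fell by 0.84 ± 0.08 with UD (adjusted p = 2.17e-08). Pld1, at 2.20 to 2.32 FPKM in RANKL and at most 1.81 FPKM in every other library, rose by 0.54 ± 0.09 (adjusted p = 2.22e-05) and fell by 0.50 ± 0.09 (adjusted p = 0.000117). Pld2 was at 0.20 with RANKL (adjusted p = 0.106; 0.28 and past the threshold without control replicate 3) and fell by 0.40 ± 0.11 with UD (adjusted p = 0.00526). Under TMM and total-count scaling alike, 3 of the 4 genes fell with UD. The ratio of Pld3 to Pld4 FPKM was 0.270 ± 0.0149 in control, 1.53 ± 0.0840 in RANKL and 0.873 ± 0.05 in RANKL+UD (SD, n = 3), and the summed FPKM of the 4 genes was 114 ± 9.27, 61.0 ± 3.22 and 47.1 ± 1.61.

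**Figure D4:**
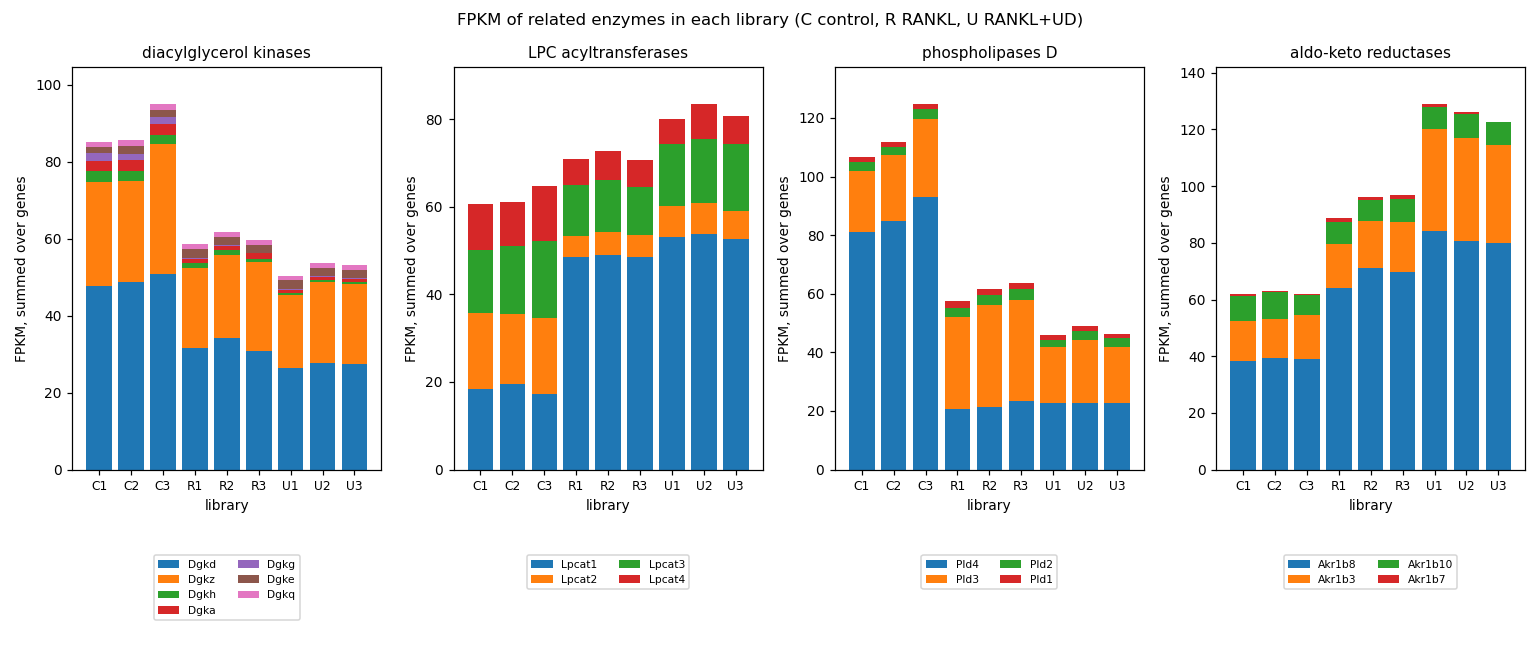
Stacked FPKM (y axis, from 0) of related enzymes in each of 9 libraries (x axis; C control, R RANKL, U RANKL+UD, replicates 1 to 3). The diacylglycerol kinase stack is lower in treated libraries, the Lpcat1 segment is larger and the Lpcat2 segment smaller in all 6 treated libraries, the Pld4 segment is small in them too, and the aldo-keto reductase stack is tallest in RANKL+UD.

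Ether lipid synthesis starts in peroxisomes with Gnpat and Agps. Of 7 tested ether lipid genes, 3 rose and 2 fell with RANKL, and 2 rose and 2 fell with UD, and with total-count scaling the counts were 1 and 3, and 2 and 1. Agps, which forms the ether bond, was at 26.8, 27.5 and 25.6 FPKM in control, 21.1, 21.5 and 19.7 FPKM in RANKL, and 26.5, 27.0 and 26.5 FPKM in RANKL+UD. The RANKL libraries were below all others, and RANKL+UD lay within the control range. It fell by 0.27 ± 0.05 with RANKL (adjusted p = 6.01e-05) and rose by 0.27 ± 0.05 with UD (adjusted p = 0.000123), and RANKL+UD differed from control by 0.00 ± 0.05 (adjusted p = 0.974). Gnpat, the acyltransferase before it, stood at 0.24 ± 0.08 with RANKL (adjusted p = 0.0148) and 0.20 ± 0.08 with UD (adjusted p = 0.0457). The first was lost without control replicate 1 or 2 or RANKL replicate 3 (0.19 to 0.20). The second was lost without control replicate 2 and without any 1 of RANKL replicates 1 and 2 and the RANKL+UD libraries (0.15 to 0.23), with DESeq2 (0.19) and with 2 other settings.

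The genes of platelet-activating factor acetylhydrolases, enzymes that remove an acetyl group from that ether lipid, also differed from each other. Pafah1b3 was at 6.85, 8.03 and 6.90 FPKM in control, 10.7, 10.8 and 11.9 FPKM in RANKL, and 7.87, 8.15 and 7.69 FPKM in RANKL+UD. The RANKL libraries were the highest 3, and RANKL+UD overlapped control. It rose by 0.70 ± 0.10 with RANKL (adjusted p = 3.24e-06) and fell by 0.58 ± 0.10 with UD (adjusted p = 7.27e-05). Pafah1b2 passed the threshold in neither comparison, and Pafah1b1 stood at 0.13 ± 0.05 with RANKL (adjusted p = 0.0254) and -0.14 ± 0.05 with UD (adjusted p = 0.0226). Both Pafah1b1 calls were lost with total-count scaling (0.04 and -0.05). The first was also lost without control replicate 2 or 3 or RANKL replicate 1 or 2 (0.10 to 0.13). The second was also lost with no filter (-0.13) and without RANKL replicate 1 or 2 or RANKL+UD replicate 2 or 3 (-0.14 to -0.12). Pafah2 fell by 0.52 ± 0.17 with RANKL (adjusted p = 0.0119), lost without RANKL replicate 1 (-0.42). Pafah1b1 and Pafah2 were named after their values were seen.

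The remaining 6 tested members are placed here by the pathway column, and Gla is the one with a lipid substrate. Gla, the lysosomal alpha-galactosidase that trims galactose from glycolipids, was at 13.2, 13.7 and 13.1 FPKM in control, 21.6, 22.2 and 23.0 FPKM in RANKL, and 14.6, 17.7 and 16.1 FPKM in RANKL+UD. The 3 groups did not overlap. It rose by 0.83 ± 0.07 with RANKL (adjusted p = 1.36e-09) and fell by 0.55 ± 0.07 with UD (adjusted p = 1.73e-06). Prr14l rose with UD by 0.26 ± 0.07 (adjusted p = 0.00384). Tmem175, a lysosomal ion channel that overlaps Dgkq on the opposite strand, rose by 0.46 ± 0.13 with RANKL (adjusted p = 0.00407) and fell by 0.41 ± 0.13 with UD (adjusted p = 0.0142), the latter lost without RANKL replicate 1 or 3 or RANKL+UD replicate 2 (-0.36 to -0.33). Zfp652 fell by 0.26 ± 0.06 with RANKL (adjusted p = 0.0012). Abi3 and Gm12138 passed neither comparison, and Tmem175 and Zfp652 were named after their values were seen.

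Against control, the RANKL+UD libraries had 21 members higher and 30 lower, beside 26.7% and 27.3% of all tested genes, and 8 and 17 of these passed a 1.5-fold change (9.3% and 12.8% of all tested genes). This comparison shares its libraries with both others. The steepest differences were those of Lpin3 (3.98 ± 0.41, adjusted p = 4.76e-08), Lpcat1 (1.53 ± 0.05, adjusted p = 3.16e-16) and Akr1b3 (1.29 ± 0.05, adjusted p = 1.77e-14) upward, and of Dgkg (-3.19 ± 0.20, adjusted p = 1.32e-11), Cds1 (-2.79 ± 0.20, adjusted p = 9.48e-11) and Dgkh (-2.08 ± 0.12, adjusted p = 2.99e-12) downward. Gpat4, Gpd1l and Agps stood at 0.02, 0.02 and 0.00 to control on the log2 scale, and Lpin2 at 0.03, none past the threshold. Akr1b8 was above its control level by 1.07 ± 0.06 (adjusted p = 6.91e-13).

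Of the 97 members that were not tested, 47 had no read in any library, 72 stayed below 0.1 FPKM in every library and 44 have names of predicted genes or pseudogenes. Both acetylcholine enzymes of the list were among them. Pemt, the liver-type route to phosphatidylcholine by methylation, was at 0.42 to 0.99 FPKM over the 9 libraries, and Phospho1 at 0.60 to 1.53 FPKM. Plaat3, a phospholipase of organelle membranes, read 0.51 to 0.67 FPKM in control and at most 0.13 FPKM in the treated libraries. Lipg, the endothelial lipase, was listed at 0 in all control libraries, at 0.13 to 0.18 FPKM in RANKL and at 0.09 to 0.13 FPKM in RANKL+UD. Enpp2, which makes lysophosphatidic acid, was at most 0.10 FPKM. These levels were too low for a test, and Phospho1, Plaat3 and Lipg were named after their values were seen. Other untested members, Enpp6 among them, also had RANKL and control libraries without overlap.

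Genes outside the members that store or carry these lipids were read from separate lists. Over all tested genes, 27.3% rose and 30.2% fell with RANKL, and 18.6% rose and 20.2% fell with UD. Of 20 lipid droplet and lipid regulator genes, 10 were tested, of which 4 rose and 3 fell with RANKL, and 2 rose and 5 fell with UD. None of these lists was tested as a set. Calls in these lists were not checked under the other settings, so how far they hold is not known. Hilpda, a droplet protein that inhibits Pnpla2, had a mean of 5.36 FPKM in control, 24.4 FPKM in RANKL and 11.6 FPKM in RANKL+UD. It rose by 2.27 ± 0.14 with RANKL (adjusted p = 1.16e-11) and fell by 1.17 ± 0.13 with UD (adjusted p = 3.98e-07). The droplet coat gene Plin3 rose by 1.26 ± 0.10 (adjusted p = 3.52e-10) and fell by 0.64 ± 0.09 (adjusted p = 1.53e-05), whereas Plin2 fell in both comparisons, by 0.24 ± 0.06 (adjusted p = 0.00161) and 0.37 ± 0.06 (adjusted p = 5.59e-05). Cd36, a fatty acid transporter, fell by 0.93 ± 0.05 with RANKL (adjusted p = 2.44e-12).

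Of 9 peroxisomal genes for plasmalogen synthesis, 8 were tested, 2 rose and 1 fell with RANKL, and 1 rose and 1 fell with UD. Far1, which supplies the fatty alcohol that Agps uses, fell by 0.55 ± 0.05 with RANKL (adjusted p = 1.36e-08) and rose by 0.14 ± 0.05 with UD (adjusted p = 0.042). Of 11 phospholipid flippases and scramblases, 9 were tested, 1 rose and 4 fell with RANKL, and none rose and 2 fell with UD. Atp8b4, a P4-type ATPase of the flippase family, fell by 1.03 ± 0.06 with RANKL (adjusted p = 4.36e-12) and by 0.70 ± 0.06 with UD (adjusted p = 2.82e-08). Plscr1, a scramblase-family gene, was the single rise of that list with RANKL (0.70 ± 0.12, adjusted p = 3.69e-05).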

How the data were processed

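RNA of 9 libraries was sequenced after poly(A) selection with a strand-marking kit. The deposited table, made by the authors' service provider, gives raw read counts per gene and FPKM values, which are scaled to exonic length and to the counted reads of the library. FPKM recomputed from the counts matched in 100% of values (tolerance 0.0051). Per the labels the genome build was mm10, but none of the 88 tested members had the table's coordinates in GRCm38, so no coordinates from the table are printed. The aligner and counter are not given in the sources used here.

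Counts of all 9 libraries (total 15951800 to 19746862) were fitted together in edgeR 4.0.16 (R 4.3.3) with 1 mean per group, TMM scaling and the quasi-likelihood F test, over the 11995 genes at 1 FPKM or more in 3 or more libraries. The Benjamini-Hochberg adjustment covered all these genes, and a call is an adjusted p under 0.05. The SE is the log2 fold change divided by the square root of F. The code was tested on simulated counts. No test was run on the member list, which is described by counts beside those of all genes. Alternatives were DESeq2 1.42.0, relative-log-expression or total-count scaling, no filter, only the 6 libraries compared, a replicate block, an adjusted p under 0.01, a fold over 1.5 and leaving out each library.

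Members, role lists and markers were chosen with earlier results of these data known. Named genes were the 10 largest rises and falls per comparison (RANKL against control, RANKL+UD against RANKL) with an adjusted p under 0.05 and groups that do not overlap, a list of step enzymes, and members that made up a count of 5 or fewer. Genes of the latter kind, the untested Phospho1, Plaat3 and Lipg, and genes outside the members were named after their values were seen. Replicate numbers come from the sample titles and name no shared culture. Correlations of same-numbered libraries' deviations ran from -0.0323 to 0.174, and those of differently numbered libraries from -0.184 to 0.109. The ranges overlapped, and the numbers were not used as pairs in the main fit.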

Additional observations from a re-analysis of the deposited data

How the results depend on the processing

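Under 15 alternative settings, all planned, 0 of 153 called values of the 88 tested members changed sign in any of the 3 comparisons, while 41 values that were not called did under at least 1 setting. In all, 32 called values lost their call under at least 1 setting, 13 of them only when a library was left out. By comparison these were 12 with RANKL, 9 with UD and 11 for RANKL+UD against control. Leaving out each library in turn, the members higher and lower with RANKL ranged from 24 to 30 and from 29 to 32 (main 30 and 31). With UD they ranged from 14 to 18 and from 19 to 26 (main 16 and 25), and for RANKL+UD against control from 19 to 23 and from 26 to 32 (main 21 and 30). Requiring a fold over 1.5 left 14 and 12 with RANKL, 1 and 8 with UD, and 8 and 17 against control. An adjusted p under 0.01 ended every call printed above with a larger value. Among these were the RANKL calls of Agpat1, Gnpat, Ptdss2 and Plpp2 and the UD calls of Agk and Chpt1. Total-count scaling ended the RANKL calls of Agpat1 (0.15), Gnpat (0.15), Pcyt1a (0.11), Gpcpd1 (0.08), Ptdss2 (0.13), Adprm (0.18) and Pafah1b1 (0.04), and the UD calls of Agk (-0.21), Pisd (-0.21), Cept1 (-0.09), Dgkz (-0.11) and Pafah1b1 (-0.05). Fitting only the 6 libraries compared ended the RANKL call of Lpgat1 (-0.13). DESeq2 called 30 and 31 members with RANKL, 15 and 26 with UD, and 21 and 29 against control.

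The replicate numbers name no shared culture, and the correlations of same-numbered and differently numbered libraries overlapped in range. With the replicate number as a block, 30 and 32 members were higher and lower with RANKL, 17 and 25 with UD, and 21 and 29 for RANKL+UD against control. Depth limits the low genes most, since Lpin3 has 0 to 7 reads per control library and Pla2g2e 19 to 31 per RANKL+UD library, and 97 members were too low to test.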
